A study of Mus musculus with 8 samples.

Results

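The genes described here are 41 genes of cell proliferation, 14 of DNA replication and 27 of mitosis, read in the whole blood of mice after restraint stress (RST). Members were taken as every probe set, the group of short probes that reads a transcript on the array, whose only gene symbol in the platform annotation was that of a listed gene. This gave 95 of the 45101 probe sets, 41 for replication and 54 for mitosis, and covered 40 of the 41 genes. Ccnb1, which encodes cyclin B1, had no probe set with a single gene name in the annotation used and has no value here. RNA came from 8 female C57BL/6J mice aged 6 to 8 weeks at purchase and sacrificed on Day 7, with 1 Affymetrix array per mouse prepared from 30 ng of RNA. The 4 RST mice spent 6 h per day in a ventilated tube over 7 days, and the 4 control mice stayed in their cages with food and water taken away in those hours. Both groups were therefore deprived of food and water for the same time and differ by the restraint and by cage. The paper states that cages, not single mice, were assigned to the groups. The cage of each mouse is not given, so restraint and cage cannot be told apart. Every test below treats the mice as independent. Whole blood is a mixture of cells, so that fewer cells of a type and less RNA per cell cannot be told apart in any value below.

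A dividing cell first licenses its replication origins, when Cdc6 and Cdt1 load the ring of Mcm proteins that will unwind DNA, then copies its genome with the clamp Pcna and a supply of nucleotides, and later separates the chromosomes on a spindle under the control of cyclins, kinases and the anaphase-promoting complex. The 2 sets of genes are known to be transcribed in successive waves, replication genes largely through E2F sites and mitosis genes largely through an element called CHR, often near CCAAT boxes. Most white cells in blood do not divide, and reticulocytes, the young red cells released from bone marrow, have lost the nucleus but still hold RNA made earlier in their precursors.

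The 2 sets differed in the letters before their start sites, a feature that owes nothing to the arrays. Windows from 250 bases before to 50 bases after each RefSeq start (GRCm38.p6) were searched on both strands for the E2F letters TTCCCGC or TTCGCGC or TTGCCGC or TTGGCGC, the CHR letters TTTGAA or TTCGAA, and the letters CCAAT. E2F matches on opposite strands can overlap each other, and TTCGAA reads the same on both strands. A match is a description of these letters and not a site of binding. The sequences are shown to let the letters be seen in place, each as the 120 bases before the start, 5′ to 3′ on the strand of the gene, with every match in capitals. In 3 replication promoters the capitals mark E2F letters (TTGGCGC and TTCCCGC, with GCGCGAA as part of an overlapping pair) and CCAAT letters (ATTGG on the opposite strand), and the Mcm7 sequence belongs to a second RefSeq start of the gene. They are the only replication promoters found with E2F letters in this stretch. The E2F letters of Mcm3, Mcm5, Cdc6, Cdt1, Rrm2 and Chek1 lay elsewhere in the window, and Mcm2, Pcna and Tyms held none.
Mcm6, chr1:128359706-128359825, minus strand: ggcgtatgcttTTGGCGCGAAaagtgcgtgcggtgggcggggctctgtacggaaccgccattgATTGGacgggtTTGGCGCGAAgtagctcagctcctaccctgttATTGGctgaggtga
Mcm7, chr5:138171267-138171386, minus strand: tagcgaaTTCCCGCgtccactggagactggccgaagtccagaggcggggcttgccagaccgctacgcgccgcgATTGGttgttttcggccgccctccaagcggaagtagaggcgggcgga
Rrm1, chr7:102441575-102441694, plus strand: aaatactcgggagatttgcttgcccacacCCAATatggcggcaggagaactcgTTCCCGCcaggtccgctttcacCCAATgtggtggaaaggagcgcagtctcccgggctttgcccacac
In the mitosis promoters of Cdk1, Cdc20, Top2a and Ube2c the capitals mark CHR letters (TTCAAA on the opposite strand) and CCAAT letters. Cdk1 also holds E2F letters, further from the start than this stretch reaches. Nusap1, a mitosis gene with a higher mean in RST mice, is shown because it holds none of them in this stretch.
Cdk1, chr10:69352913-69353032, minus strand: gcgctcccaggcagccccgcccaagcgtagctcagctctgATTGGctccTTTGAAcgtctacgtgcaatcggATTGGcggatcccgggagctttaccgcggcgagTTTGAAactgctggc
Cdc20, chr4:118437344-118437463, minus strand: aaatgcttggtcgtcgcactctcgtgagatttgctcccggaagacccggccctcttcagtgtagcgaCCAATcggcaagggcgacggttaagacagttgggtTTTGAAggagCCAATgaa
Top2a, chr11:99024190-99024309, minus strand: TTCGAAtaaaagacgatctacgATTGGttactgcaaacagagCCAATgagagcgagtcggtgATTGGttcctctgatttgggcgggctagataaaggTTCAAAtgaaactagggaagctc
Ube2c, chr2:164769809-164769928, plus strand: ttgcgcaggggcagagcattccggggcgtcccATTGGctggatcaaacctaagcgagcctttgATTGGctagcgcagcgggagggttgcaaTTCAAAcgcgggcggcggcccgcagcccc
Nusap1, chr2:119618178-119618297, plus strand: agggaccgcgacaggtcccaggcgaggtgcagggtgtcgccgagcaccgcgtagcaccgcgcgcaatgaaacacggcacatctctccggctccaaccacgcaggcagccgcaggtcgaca

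Of the 13 promoter windows found for 12 replication genes, 10 (76.9%) held E2F letters and 2 (15.4%) CHR letters. Of the 25 windows found for 23 mitosis genes, 6 (24.0%) held E2F letters and 20 (80.0%) CHR letters. CCAAT letters stood in 9 replication windows (69.2%) and in 21 mitosis windows (84.0%). Over all 32851 windows the shares were 9.57% for E2F, 19.2% for CHR and 37.4% for CCAAT letters. These include windows of genes that were not tested on the arrays. Of the 9487 genes tested that had a window, 1441 held E2F without CHR letters, 1322 CHR without E2F letters and 288 both. The median share of G and C was 57.3% in replication and 58.7% in mitosis windows, against 52.7% over all windows.

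**Figure D1:**
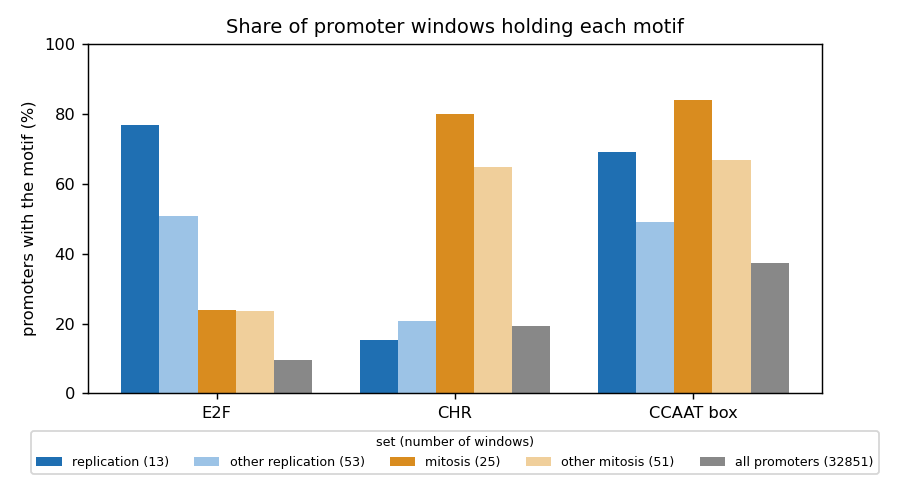
Bars give the percentage of promoter windows, from 250 bases before to 50 bases after the start, that hold the letters of each motif, for replication and mitosis members, further genes of the same processes and all windows in the table. E2F letters reach 76.9% in replication members and CHR letters 80.0% in mitosis members, against 9.57% and 19.2% of all windows.

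The arrays were not alike in the spread of their values. RST mouse 4 had an upper quartile of 4.50 on the log2 scale, against 5.06 to 5.37 in the other 7 mice, and was the lowest of the 8 mice in 41.6% of the probe sets tested. The spiked hybridization controls averaged 11.9 in control mice 1 and 2 and 12.4 to 12.7 in the other 6. Between mice, the correlation across probe sets was 0.922 to 0.977 within groups and 0.910 to 0.967 between groups. The median gene had a log2 fold change (RST minus control) of −0.24, which became −0.05 with quantile normalization, −0.45 when arrays were scaled to their control probe sets and −0.11 without RST mouse 4. Group differences of the members are therefore given also relative to the median gene, as a shift.

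Of the 95 member probe sets, 67 passed the filter, which asks for a value above the median of the array in at least 2 of the 4 arrays of a group. Of these, 63 passed in both groups, 2 in control mice alone and 2 in RST mice alone. They represent 38 genes, each by its brightest probe set, namely 12 replication genes and 26 mitosis genes. Aurka, a spindle kinase, lay just inside the filter with 1 control and 2 RST arrays above the median, and was the only gene represented by a probe set that passed in a single group. The licensing factor Cdc6, with its 1 probe set, and the checkpoint kinase Chek1, with 5, were under it. The 28 probe sets under the filter comprised 17 with a higher and 11 with a lower mean in RST mice, and 1 of them, a probe set of Tpx2, was higher past the unadjusted threshold used below.

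No member was called different between RST and control mice after correction. In simulated data of the same size, 6% of 2-fold and 32% of 3-fold changes were called. An uncalled member may therefore still differ. limma with Benjamini-Hochberg adjustment over 25084 probe sets gave no adjusted p under 0.32, and called 0 of the 67 member probe sets and 0% of all probe sets. Without adjustment, at p under 0.05 and a change of more than 1.5-fold, 12 of the 67 member probe sets (17.9%) passed, where 13.3% of all probe sets did. The 9 that were lower in RST mice were all replication probe sets, 9 of 27 (33.3%), where 10.4% of all probe sets were lower past the same threshold. The 3 that were higher were all mitosis probe sets, 3 of 40, where the share over all probe sets was 2.89%. RST values lay below all control values in 4 of the 27 replication probe sets, where 5.76% of all probe sets did, and above them in 2 of the 40 mitosis probe sets, where 2.23% did. A lower mean was found in 22 of 27 replication and 19 of 40 mitosis probe sets, against 65.3% of all.

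Counted by gene, the direction differed between the lists in the same way. Of the 12 replication genes, 4 (Cdt1, Mcm3, Mcm7 and Rrm1) were lower and 0 were higher past the unadjusted threshold, and 10 had a lower and 2 a higher mean in RST mice. Of the 26 mitosis genes, 3 (Ccna2, Ube2c and Nusap1) were higher and 0 were lower, and 14 had a higher and 12 a lower mean. Over all 11762 genes tested, 12.8% were lower and 2.8% higher past this threshold, and 67.6% had a lower and 32.4% a higher mean. The median log2 fold change was −0.55 for replication genes, a shift of −0.31 from the median gene, and 0.04 for mitosis genes, a shift of 0.29.

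Both shifts kept their sign with quantile normalization, at −0.33 and 0.30, whereas scaling to the control probe sets adds a constant to each array and cannot alter a value relative to the median gene. The median of the mitosis genes itself did not, being 0.24 with quantile normalization and −0.16 with arrays scaled to their control probe sets, so mitosis genes are described here as above or below the median gene. On that footing 21 of 26 mitosis genes lay above the median gene and 8 of 12 replication genes below it, with the same counts after quantile normalization. The mitosis count was 15 of 26 with no filter on low values and 17 of 26 with the hybridization controls as covariate or without control mice 1 and 2, at shifts of 0.09, 0.10 and 0.12. Single libraries weighed heavily on the member counts and on the calls over all probe sets. Without RST mouse 4 the replication shift was −0.10, and the count of replication and mitosis probe sets lower past the unadjusted threshold was 1 in place of 9, while that of higher ones was 10 in place of 3. Of the unadjusted calls over all probe sets, 53.2% were then lower, in place of 78.3%. The lower member count was also 1 without control mouse 1 and 3 without control mouse 2, and the higher count was 1 without control mouse 2. The calls over all probe sets were 1742 and 1765 without these mice, in place of 3337.

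**Figure D2:**
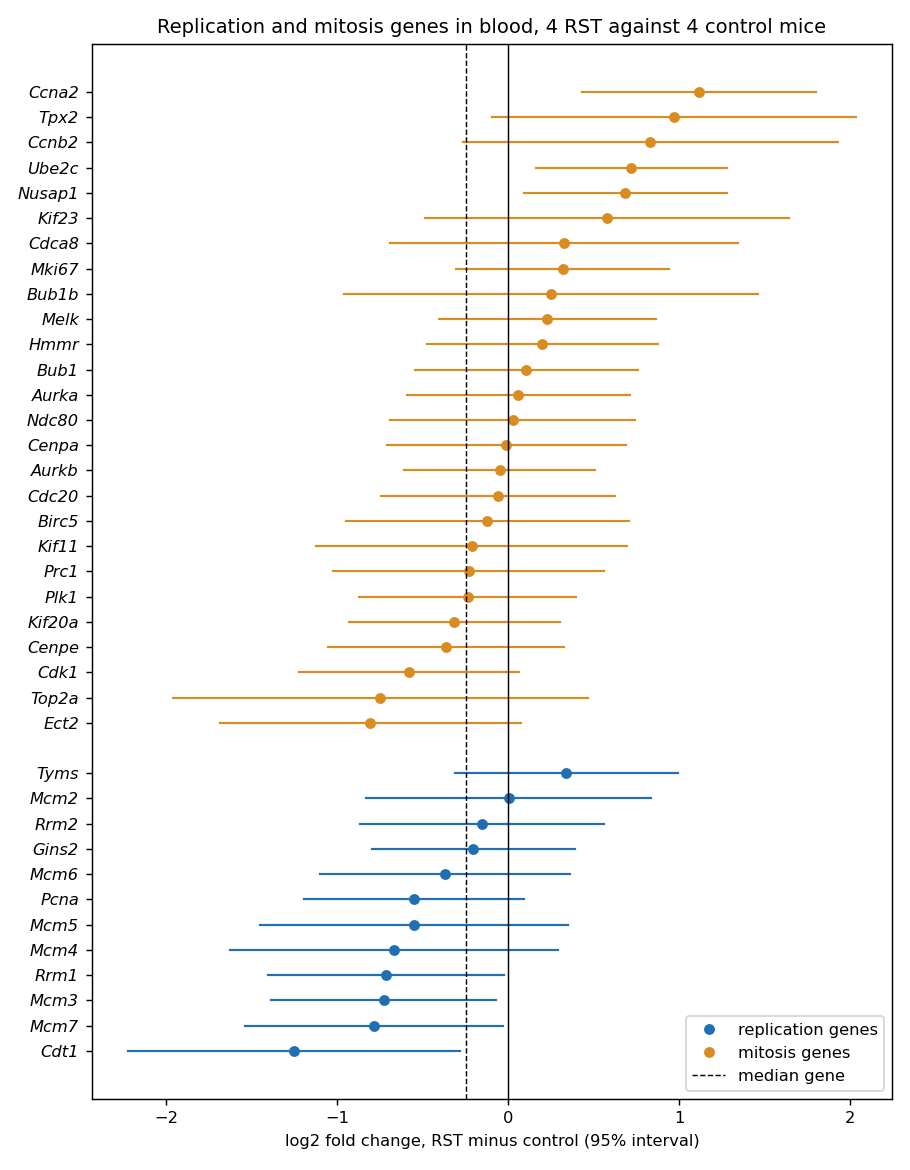
Points give the log2 fold change (RST minus control, 4 mice each) of the 38 member genes past the filter and lines its 95% interval from limma, with mitosis genes above and replication genes below, and the dashed line at the median gene (−0.24). Replication genes run from −1.25 to 0.34 and mitosis genes from −0.80 to 1.12, and the intervals overlap widely.

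Cdt1, which loads the Mcm ring onto origins, had the lowest fold change of the 38 genes. Its log2 level (probe set 1424143_a_at) was 7.16, 6.96, 6.68 and 6.38 in control mice 1 to 4 and 5.13, 6.35, 6.36 and 4.31 in RST mice 1 to 4. All RST mice lay below all control mice, but RST mice 2 and 3 came within 0.1 of control mouse 4, and RST mice 1 and 4 were much lower. This gave a log2 fold change of −1.25 (standard error, SE, 0.44, n = 4 per group), or 2.38-fold lower, with an adjusted p of 0.32 in limma and an exact permutation p of 0.029, the smallest that 4 against 4 mice can give. Its other probe set past the filter gave −0.86.

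The 6 Mcm genes encode the subunits of the ring that unwinds DNA at the fork, and 5 of them had a lower mean in RST mice. Mcm3 (1420028_s_at) had log2 levels of 6.38, 5.81, 6.39 and 6.44 in control mice and 5.72, 5.85, 5.70 and 4.84 in RST mice. Control mouse 2 fell among the RST mice, and RST mouse 4 lay far under all others. In the fit it stood at a log2 fold change of −0.73 (SE 0.30, adjusted p 0.34 in limma, exact permutation p 0.057), and the 5 Mcm3 probe sets ranged from −0.99 (without overlap between groups) to −0.15. Mcm7 (1438320_s_at) had levels of 7.63, 7.46, 6.25 and 6.87 in control mice and 6.46, 6.39, 6.51 and 5.72 in RST mice. Here control mice 1, 2 and 4 lay above every RST mouse and control mouse 3 did not. The log2 fold change was −0.78 (SE 0.35, adjusted p 0.36 in limma, exact permutation p 0.11), and the 4 Mcm7 probe sets gave nearly the same value, from −0.86 to −0.78.

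The probe sets that represent the other 4 Mcm genes did not pass the unadjusted threshold. Mcm4, read by a probe set (1436708_x_at) of a class that can also match related transcripts, had levels of 7.06, 7.20, 6.18 and 6.65 in control mice and 6.64, 6.47, 6.60 and 4.71 in RST mice, a log2 fold change of −0.67 (SE 0.44). RST mouse 4 was 1.76 below the next RST mouse, and without it the log2 fold change was −0.20. A second Mcm4 probe set was 6.54 to 6.94 in control mice and 5.73 to 6.49 in RST mice, without overlap, at a log2 fold change of −0.53 (SE 0.27). Mcm5 (1436808_x_at, of the same class) had levels of 4.29, 4.22, 3.86 and 3.24 in control mice and 2.99, 4.17, 3.88 and 2.37 in RST mice, a log2 fold change of −0.55 (SE 0.41). Mcm6 (1416251_at) had levels of 6.21, 6.14, 5.59 and 5.35 in control mice and 5.67, 5.71, 5.79 and 4.64 in RST mice, a log2 fold change of −0.37 (SE 0.33). The groups overlapped in both. Their second probe sets past the filter were lower still, at −0.79 (SE 0.39) for Mcm5 and −1.02 (SE 0.42) for Mcm6, and that of Mcm6, 5.17 to 6.03 in control mice and 3.23 to 5.25 in RST mice, passed the unadjusted threshold. Mcm2 (1434079_s_at) had levels of 5.52, 5.08, 4.92 and 4.46 in control mice and 5.08, 5.55, 5.44 and 3.94 in RST mice, and its log2 fold change of 0.00 had a 95% interval from −0.83 to 0.84. Its mean was lower in RST mice when arrays were scaled to their control probe sets (−0.20). Gins2, a subunit of the GINS complex that works with the ring, had a log2 fold change of −0.20 (SE 0.27).

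Pcna, the clamp that holds the polymerase on DNA, was the other replication gene whose groups did not overlap at its representing probe set. This made 2 of 12 replication genes lower without overlap, where 6.57% of all genes were. Its log2 level (1417947_at) was 8.77, 8.32, 8.47 and 8.12 in control mice and 8.06, 8.12, 8.10 and 7.20 in RST mice. Control mouse 4 and RST mouse 2 differed only in the third decimal, and RST mouse 4 stood apart. A log2 fold change of −0.55 (SE 0.29, exact permutation p 0.029, adjusted p 0.41 in limma) stayed under a fold of 1.5.

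The values of the nucleotide enzymes differed in sign. Rrm1, the large subunit of ribonucleotide reductase, had log2 levels (1415878_at) of 5.45, 4.76, 4.96 and 4.47 in control mice and 4.13, 4.85, 3.93 and 3.86 in RST mice. All RST mice but mouse 2 lay below the control mice. The fitted log2 difference was −0.71 (SE 0.31, adjusted p 0.36 in limma, exact permutation p 0.086), whereas its second probe set gave −0.03. Rrm2, the small subunit of the same enzyme, had levels (1434437_x_at) of 8.66, 7.37, 7.87 and 7.83 in control mice and 7.93, 7.89, 8.08 and 7.23 in RST mice. Its log2 fold change was −0.15 (SE 0.33), its 3 probe sets ranged from −0.15 to 0.42, and its sign was positive after quantile normalization (0.03). Tyms, the thymidylate synthase, had the highest log2 fold change of the replication genes at 0.34 (SE 0.30), with levels (1442192_at) of 4.05 to 4.65 in control mice and 4.27 to 5.33 in RST mice.

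RST mouse 4 was the lowest of the 8 mice in 11 of the 12 replication genes, and control mouse 1 the highest in 7. Among the 26 mitosis genes, control mouse 2 and RST mouse 4 were each lowest in 8 genes and RST mouse 2 in 6, while RST mouse 3 was highest in 9, RST mouse 1 in 8 and control mouse 1 in 5. The low values of RST mouse 4 thus covered nearly all replication genes and fewer than 1 in 3 mitosis genes. Over all probe sets tested this mouse was the lowest in 41.6%.

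**Figure D3:**
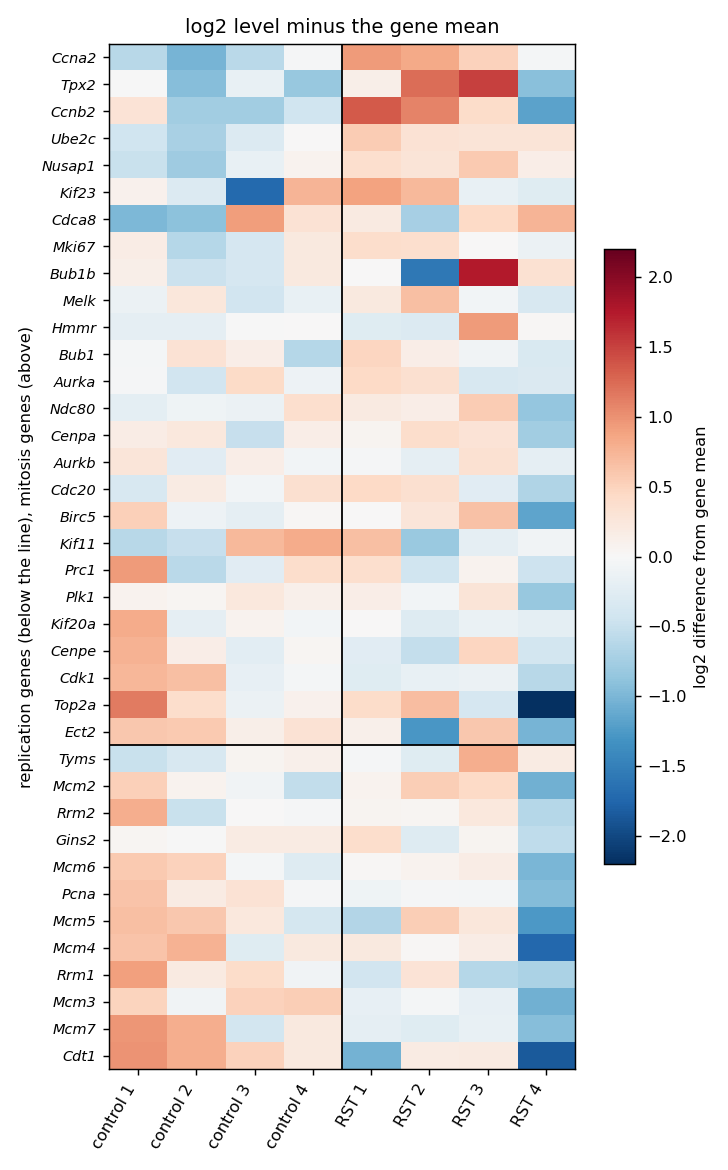
Colour gives the log2 level of each of the 38 member genes in each mouse minus the mean of that gene over the 8 mice, with mitosis genes above the line and replication genes below it, each ordered by fold change. The column of RST mouse 4 is blue for 11 of 12 replication genes as their lowest value, and the top 5 mitosis genes are red in RST mice 1 to 3.

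Both cyclins measured were among the 3 mitosis genes with the highest log2 fold changes. Ccna2 encodes cyclin A, which acts from DNA replication to the entry into mitosis. Its log2 level (1417910_at) was 7.84, 7.43, 7.85 and 8.42 in control mice and 9.39, 9.27, 8.95 and 8.40 in RST mice. RST mice 1 to 3 lay above all control mice, and RST mouse 4 just under control mouse 4. The log2 fold change of 1.12 (SE 0.31, n = 4 per group), or 2.17-fold, was the highest of the 38 genes, with an adjusted p of 0.32 in limma and an exact permutation p of 0.057, and its other probe set gave 0.67. Ccnb2, a B-type cyclin that activates Cdk1, had levels (1450920_at) of 5.92, 4.84, 4.84 and 5.18 in control mice and 6.96, 6.70, 6.02 and 4.43 in RST mice. RST mice 1 to 3 were above every control mouse while RST mouse 4 was the lowest of the 8, and the log2 fold change of 0.83 (SE 0.50) had an adjusted p of 0.45 in limma.

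Cdk1, the kinase that these cyclins activate, ran the other way. Its log2 level (1448314_at) was 5.84, 5.78, 4.93 and 5.06 in control mice and 4.85, 4.95, 4.98 and 4.51 in RST mice. Control mice 1 and 2 stood above the rest, and control mouse 3 fell among the RST mice. Its log2 fold change was −0.58 (SE 0.29, adjusted p 0.39 in limma, exact permutation p 0.086), a value near that of the median replication gene.

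Ube2c and Nusap1 were the 2 of 26 mitosis genes higher in RST mice without overlap, where 2.37% of all genes were. Ube2c is the enzyme that passes ubiquitin to targets of the anaphase-promoting complex. Its log2 level (1452954_at) was 10.88, 10.61, 11.04 and 11.34 in control mice and 11.89, 11.65, 11.61 and 11.61 in RST mice. The lowest RST mouse was 0.26 above the highest control mouse, and RST mice varied less than control mice. The log2 fold change was 0.72 (SE 0.25), or 1.65-fold, with an adjusted p of 0.32 in limma and an exact permutation p of 0.029. Cdc20, which activates the same complex, had a log2 fold change of −0.06 (SE 0.31), with a positive sign after quantile normalization (0.07).

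Nusap1, which bundles spindle microtubules, had a log2 level (1416309_at) of 10.05, 9.76, 10.38 and 10.62 in control mice and 10.91, 10.83, 11.12 and 10.70 in RST mice. The distance between control mouse 4 and RST mouse 4 was 0.08. The fitted log2 difference was 0.69 (SE 0.27), or 1.61-fold, with an adjusted p of 0.33 in limma and an exact permutation p of 0.029, and the second probe set gave 0.54. Tpx2, which starts microtubules around chromosomes and activates the kinase Aurka, had levels (1428104_at) of 5.51, 4.60, 5.36 and 4.69 in control mice and 5.65, 6.75, 7.02 and 4.61 in RST mice. The groups overlapped at RST mouse 4. Its log2 fold change of 0.97 (SE 0.49, adjusted p 0.39 in limma) was not shared by its other probe set past the filter, which gave 0.00.

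**Figure D4:**
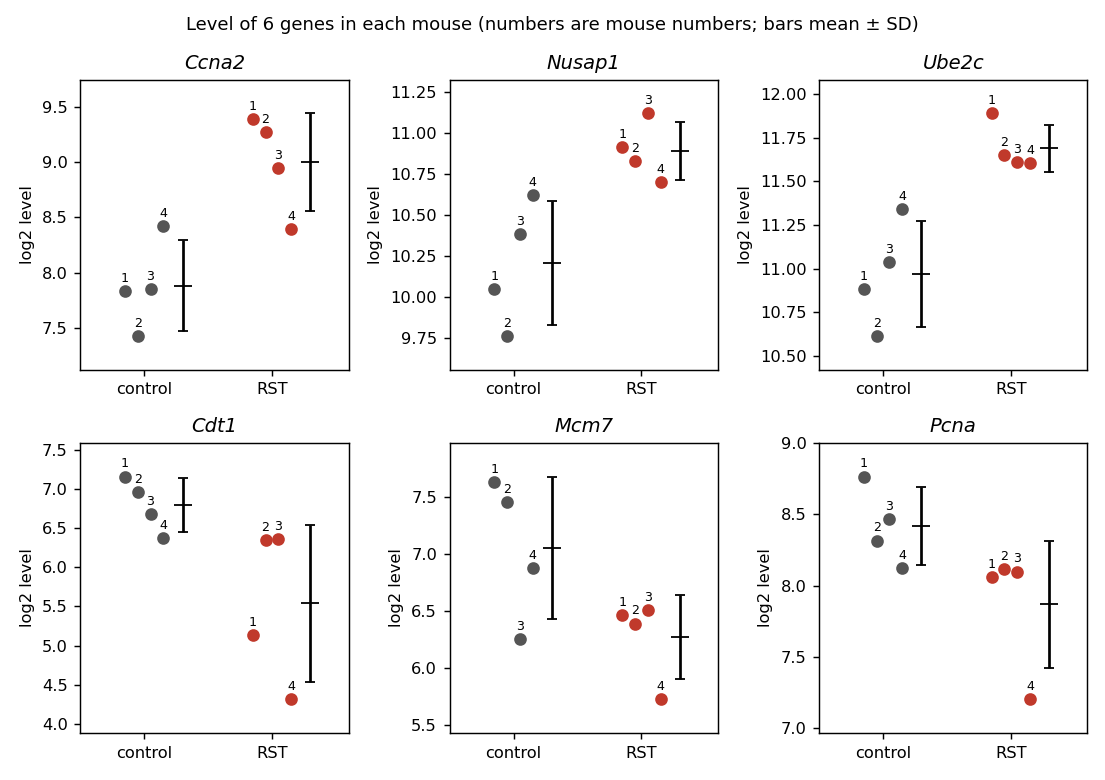
Points give the log2 level of 3 mitosis genes (above) and 3 replication genes (below) in each mouse, numbered by mouse, with bars at the mean ± SD of 4 mice, and each panel has its own axis. RST and control values do not overlap for Nusap1, Ube2c, Cdt1 and Pcna, and RST mouse 4 is the lowest RST value in all panels.

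Among genes of spindle and cytokinesis, Ect2, which is needed for cytokinesis, had the lowest value of the mitosis list. Its log2 level (1419513_a_at) was 4.08, 4.06, 3.62 and 3.81 in control mice and 3.60, 2.20, 4.08 and 2.46 in RST mice. RST mice 2 and 4 were low and RST mouse 3 was the highest of the 8, and the log2 fold change of −0.80 (SE 0.40) had an adjusted p of 0.39 in limma. The probe sets of Kif23, a motor of the central spindle, disagreed, with log2 fold changes of 0.58 and −0.67.

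The markers commonly used for cycling cells also differed among themselves. Top2a, the topoisomerase that untangles chromosomes, had levels (1454694_a_at) of 7.33, 6.59, 6.07 and 6.30 in control mice and 6.60, 6.88, 5.83 and 4.00 in RST mice, a log2 fold change of −0.75 (SE 0.55). The low value of RST mouse 4 carried most of it, and without that mouse the log2 fold change was −0.14. Mki67, which encodes the Ki-67 protein that coats mitotic chromosomes, had levels (1426817_at) of 8.05, 7.26, 7.52 and 8.10 in control mice and 8.28, 8.25, 7.91 and 7.77 in RST mice. The groups overlapped, and the log2 fold change was 0.32 with a 95% interval from −0.30 to 0.94.

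The remaining mitosis members did not pass the unadjusted threshold. Bub1b of the spindle checkpoint had a log2 fold change of 0.25, with RST mice spread from 3.69 to 7.00. The kinase Plk1 was at −0.24 and the kinesin Kif20a at −0.31. The chromosomal passenger genes Aurkb, Birc5 and Cdca8, the checkpoint kinase Bub1, the centromere and kinetochore genes Cenpa, Cenpe and Ndc80, the kinases Aurka and Melk and the spindle genes Kif11, Prc1 and Hmmr all lay between −0.36 and 0.33. Where a gene had several probe sets past the filter, these shared 1 sign in 8 of 9 replication genes and in 9 of 11 mitosis genes, the exceptions being Rrm2, Kif23 and Hmmr.

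To set the lists side by side within each mouse, a score was taken as the mean over the genes of a list of the log2 level minus the mean of that gene, less the same value for the array's median gene. The replication score was 0.33, −0.02, 0.10 and −0.02 in control mice 1 to 4 and −0.11, −0.05, 0.08 and −0.47 in RST mice 1 to 4. The mitosis score was −0.13, −0.50, −0.16 and 0.04 in control mice and 0.33, −0.07, 0.28 and 0.05 in RST mice. Both scores overlapped between groups.

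The mitosis score minus the replication score was −0.46, −0.48, −0.27 and 0.06 in control mice and 0.44, −0.01, 0.20 and 0.52 in RST mice. Control mouse 4 exceeded RST mouse 2, and the other control mice lay below all RST mice. The group means were −0.29 ± 0.25 and 0.29 ± 0.24 (SD, n = 4 each), 0.57 apart. The difference ranged from 0.39 to 0.69 over 18 alternative settings, which include leaving out each mouse, and was 0.49 without RST mouse 4. Among these settings, control probe set scaling and the replicate block cannot change it. Since the members were chosen with results known, this difference carries no test.

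**Figure D5:**
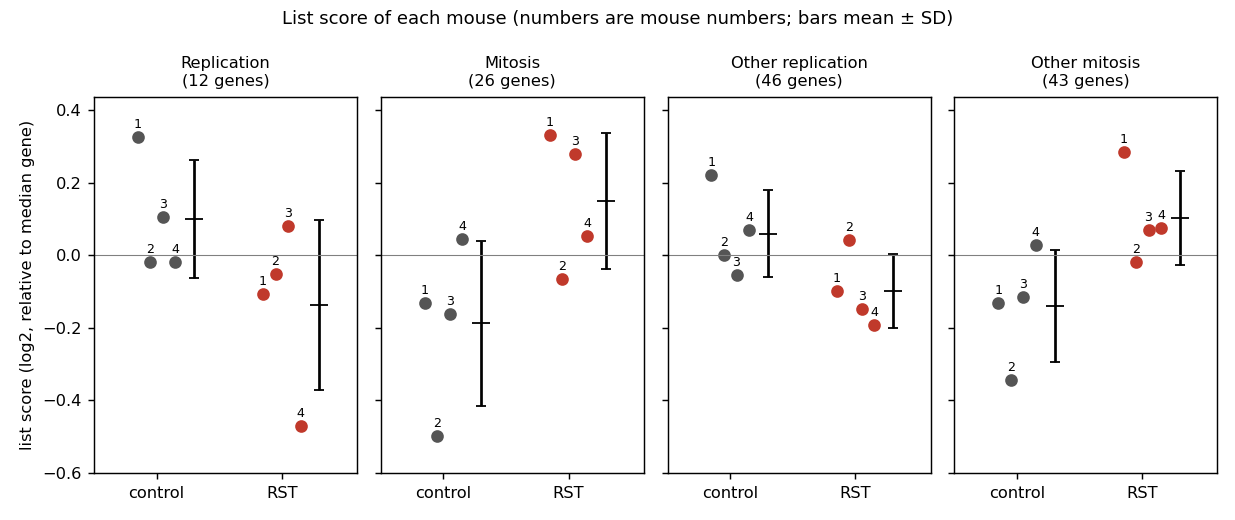
Points give the list score (log2, relative to the median gene) of each mouse, numbered, for replication and mitosis members and for further genes of the same processes, with bars at the mean ± SD of 4 mice. Mean replication scores are −0.14 in RST and 0.10 in control mice and mean mitosis scores 0.15 and −0.19, with overlap in every panel.

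Further genes of the same processes, not among the members, were listed by their known roles. These lists too were made with earlier results of these data known, so they are not an independent check and carry no test. Of 52 further replication genes 46 passed the filter, 35 with a lower and 11 with a higher mean in RST mice, and 9 were lower and 0 higher past the unadjusted threshold. These are 76.1% with a lower mean and 19.6% lower past the threshold, against 67.6% and 12.8% of all genes. Their median log2 fold change of −0.57 was a shift of −0.32. The lowest p belonged to Rpa3, a subunit of the protein that coats single-stranded DNA, at −1.25 (SE 0.39), and Pold1, the catalytic subunit of polymerase delta, at −1.23 (SE 0.41). Pold1 was 6.57 to 7.67 in control mice and 4.73 to 6.37 in RST mice, without overlap, and its adjusted p in limma was 0.32.

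Of 58 further mitosis genes 43 passed the filter, 25 with a higher and 18 with a lower mean, and 1 was higher (2.33%, against 2.8% of all genes) and 0 lower past the unadjusted threshold. Their median of 0.10 was a shift of 0.34. The kinetochore gene Cenpk was at 5.89 to 7.00 in control mice and 7.01 to 7.30 in RST mice, a log2 fold change of 0.79 (SE 0.28), with control mouse 4 at nearly the level of RST mouse 4. The condensin subunit Ncapg2 was at −0.93 (SE 0.43). The score of these mitosis genes minus that of these replication genes was −0.35, −0.35, −0.06 and −0.04 in control mice and 0.38, −0.06, 0.22 and 0.27 in RST mice, 0.40 apart in the mean, and RST mouse 2 fell within the control mice.

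Genes that hold cells out of the cycle and genes of its first phase showed smaller shifts. Of 16 genes linked to arrest 12 passed the filter, with a shift of −0.07 and 0 higher and 1 lower past the unadjusted threshold (8.33%, against 12.8% of all genes). The lower gene, Ccng1, a target of p53, was at −0.79 (SE 0.33), and Gadd45a, a stress-inducible gene, was at 11.04 to 11.62 in control mice and 11.76 to 11.89 in RST mice, a log2 fold change of 0.57 (SE 0.24). Of the 8 genes of the first phase, cyclins D and their kinases among them, 6 had a lower mean (75%, against 67.6% of all genes), 0 passed the unadjusted threshold in either direction and the shift was −0.19. The lowest p belonged to Ccnd2, at −0.57 (SE 0.28), and Cdk2, at −0.57 (SE 0.35).

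The promoter letters shown above can be set beside these values. The 6 members with E2F and without CHR letters (Cdt1, Mcm3, Mcm5, Mcm6, Rrm1 and Rrm2) had a median log2 fold change of −0.63, and the 15 members with CHR and without E2F letters 0.03. The corresponding medians over all genes with these letters were −0.31 (1441 genes) and −0.22 (1322 genes), little apart. Of the 5 members with both, Cdk1, Ect2, Hmmr, Mcm7 and Mki67, the median was −0.58. The 6 members with neither, Nusap1, Pcna and Tyms among them, had a median of 0.05. This was near the median of the members with CHR letters and no E2F letters. The letters follow the 2 lists closely, so this does not separate the letters from the lists.

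Markers of several blood cell types differed in mean between the groups, with no adjusted p under 0.32 in limma. Over all genes tested, 2.8% were higher and 12.8% lower past the unadjusted threshold. A higher mean was found in 32.4% of all genes and a lower mean in 67.6%. Of 12 measured reticulocyte genes all 12 were higher in the mean of RST mice, 6 of them past the unadjusted threshold, with a score of −0.64, −0.98, −0.20 and −0.03 in control mice and 0.50, 0.42, 0.27 and 0.49 in RST mice. The mean log2 level of the list was 9.39 to 10.11 in control mice and 10.11 to 10.65 in RST mice. Erythroid precursor genes, 12 of 13 past the filter with Epor under it, had a higher mean in 10, 5 of them past the unadjusted threshold, and scores of −1.28 to 0.01 in control mice and −0.08 to 0.70 in RST mice.

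Lymphocyte markers were lower in RST mice, where 67.6% of all genes had a lower mean and 12.8% were lower past the unadjusted threshold. All 8 B cell genes past the filter (Pax5 was under it) had a lower mean, 7 past the unadjusted threshold, and the mean log2 level of the list was 7.88 to 8.98 in control mice and 7.13 to 7.65 in RST mice. All 8 measured T cell genes had a lower mean, 5 past the threshold, at 7.76 to 8.41 in control mice and 6.77 to 7.74 in RST mice. Of markers of bone marrow progenitors, 4 of 7 passed the filter and the defining genes Kit, Cd34 and Flt3 did not. Of these 4, 3 had a higher mean, and 1, Myb, was lower past the unadjusted threshold. Its log2 fold change was −1.18 (SE 0.28), without overlap between groups. Of granulocyte precursor markers 5 of 9 passed the filter, while Elane, Mpo, Ctsg and Ms4a3 did not. Of the granulocyte precursor genes, 3 were lower past the unadjusted threshold and the mean log2 level was 4.69 to 7.73 in control mice and 4.14 to 5.86 in RST mice. Of the other lists, 6 of 7 measured platelet genes had a higher mean, against 32.4% of all genes. Of these platelet genes 0 passed the unadjusted threshold in either direction. Their scores, relative to the median gene, were −0.52 to −0.07 in control mice and 0.12 to 0.26 in RST mice. The mean log2 level of the list overlapped, at 9.58 to 9.87 in control mice and 9.60 to 10.2 in RST mice. Of the 7 plasma cell genes past the filter 6 had a lower mean. Only 1 of them was lower past the unadjusted threshold, near the share of 12.8% over all genes. Of 6 monocyte genes 3 were lower past the threshold, and of 6 natural killer cell genes 2, where 12.8% of all genes were. Of 7 neutrophil genes 5 had a higher mean and 0 passed the threshold, with scores of −0.44 to 0.11 in control mice and −0.44 to 1.17 in RST mice. The part of these cell types in the values of the replication and mitosis genes was not tested.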

How the data were processed

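Whole blood RNA of 4 RST and 4 control mice was read on Affymetrix mouse genome arrays, 1 per mouse. The authors deposited log2 values per probe set, per the methods after GSRMA in Partek Genomic Suite, while the processing notes of the submitters list RMA, Partek and version 1.2.0.20 of Affymetrix Expression Console. Scan dates and slides are not given in the sources used here, so no block on them was run, and the number of arrays limits the precision.

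Affymetrix control probe sets (64) were left out. In place of presence calls, a probe set was kept (25084 of 45101) if 2 or more of the 4 arrays of either group were above that array's median. The comparison used lmFit and eBayes of limma 3.58.1 (R 4.3.3) with Benjamini-Hochberg adjustment, and a call needed an adjusted p under 0.05 and more than 1.5-fold. Single genes were also compared by two-sided exact permutation of 4 against 4 mice, whose smallest p is 0.029. The fit was tested on simulated data.

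Gene names come from the platform annotation. It gave 34958 probe sets a single gene and 932 several, which stayed unnamed, and did not list 9211. Entrez identifiers updated the symbols of 34754. The brightest probe set past the filter stood for its gene. Promoters are RefSeq windows (GRCm38.p6). Named with values were the Mcm genes, Pcna, Rrm2, Mki67, Top2a and Cdk1, the 5 members of each list with the smallest p, genes at the filter, and the 2 genes with the smallest p of each other pathway list. Other genes with values were picked knowing them, among them Tyms, Gins2, Ccnb2, Cdc20, Kif23, Bub1b, Plk1 and Kif20a. The members and lists were chosen with earlier results of these data known. The alternatives changed the filter, normalization, floor, array weights, prior, test, covariate, gene summary, replicate block and each mouse. Plots were made in matplotlib 3.10.9 (Python 3.11.15).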

Additional observations from a re-analysis of the deposited data

Results flagged for a closer look

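Within a group of 4 mice, a value was singled out where the gap of the highest or lowest mouse to its nearest neighbour took up more of the group's range than Dixon's 95% limit allows, which chance exceeds in about 1 of 20 groups. Of 82 groups tested, 8 met it. RST mouse 4 was the low value in 5 of them, all replication genes, with log2 levels of 4.84 for Mcm3 (5.70 to 5.85 in the other RST mice), 4.71 for Mcm4 (6.47 to 6.64), 4.64 for Mcm6 (5.67 to 5.79), 5.72 for Mcm7 (6.39 to 6.51) and 7.20 for Pcna (8.06 to 8.12). The same array was low in 41.6% of all probe sets tested, and its part in these values was not tested. Control mouse 2 was low for Mcm3 at 5.81 (6.38 to 6.44 in the other control mice), and control mouse 3 was low for the centromere histone Cenpa at 5.28 (5.93 to 6.02). RST mouse 1 was high for Ube2c at 11.89 (11.61 to 11.65).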

How the results depend on the processing

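Over the alternatives run, 0 member genes passed the adjusted threshold in limma, and the sign of the replication shift, the mitosis shift and the mitosis minus replication difference did not turn. Control probe set scaling and the replicate block could not turn these signs. Over all probe sets 0 were called at an adjusted p under 0.05, with 3337 past the unadjusted threshold, and 35 were called with a trended and robust prior. The unadjusted count over all probe sets was 5539 with array weights, 2091 with the hybridization controls as covariate, 884 without control mice 1 and 2, and 1742 to 4952 with each mouse left out (1742 without control mouse 1, 1765 without control mouse 2). That of member probe sets, 12, was 4 with the covariate, 1 without control mice 1 and 2, 5 by the methods' analysis of variance, and 3 to 13 with each mouse left out (3 and 4 without control mice 1 and 2). The 3 higher probe sets became 8 after quantile normalization, 1 after control probe set scaling, 7 with array weights, 1 with the covariate, 0 without control mice 1 and 2, and 1 to 10 with each mouse left out. The 9 lower became 2, 16, 3 (covariate), 1 (without control mice 1 and 2), 2 (analysis of variance) and 1 to 10, the first 2 after quantile normalization and control probe set scaling. Of all unadjusted calls 78.3% were lower, 52.9% after quantile normalization, 94.1% after control probe set scaling and 53.2% without RST mouse 4.

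With each mouse left out, the replication shift ran from −0.39 to −0.10 and the mitosis shift from 0.19 (without RST mouse 3) to 0.33. Without control mice 1 and 2 they were −0.15 and 0.12, with the covariate −0.17 and 0.10, and with no filter −0.42 and 0.09. Of the 26 genes given with values of their own, signs turned for Mcm2 (−0.20 after control probe set scaling), Rrm2 (0.028 after quantile normalization, 0.14 as the mean of its probe sets), Cdc20 (0.074 after quantile normalization, 0.046 with array weights), Bub1b (−0.080 with the covariate) and Kif23 (−0.044 as the mean of its probe sets). With each mouse left out, the range included 0 for Mcm2 (−0.18 to 0.36), Rrm2 (−0.34 to 0.092), Cdc20 (−0.22 to 0.15), Bub1b (−0.29 to 0.82) and Plk1 (−0.37 to 0.0040). Of the other 12 member genes, all mitosis genes between −0.36 and 0.33, the sign turned in 10 under an alternative or with a mouse left out, the exceptions being Cenpe and Melk. The cause was not tested. The labels number mice 1 to 4 in both groups and do not say whether equal numbers were handled together. Deviations of same-numbered mice correlated at −0.25, 0.42, 0.05 and 0.20, and those of different numbers at −0.54 to 0.52. These values cannot settle whether the numbers pair the mice, and the main fit used no pairing. With the replicate block 16 member probe sets passed the unadjusted threshold, 4 higher and 12 lower, and 0 of all probe sets the adjusted one.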
